A study of Mus musculus with 2 samples.

Results

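The 7SK small nuclear ribonucleoprotein and the kinase it restrains were described in the nuclear RNA of Lipid A-treated mouse macrophages through 9 genes. They are Rn7sk, the 7SK RNA itself; Larp7 and Mepce, its core protein partners; Hexim1 and Hexim2, the inhibitors; Cdk9, Ccnt1 and Ccnt2, the kinase and cyclins of P-TEFb; and Nelfe, a subunit of the pausing factor NELF. They were matched by symbol, and the list was drawn up with earlier results of these data known. Of 55536 annotated genes these are 9, and all were found in every table. Both libraries came from primary bone-marrow-derived macrophages of strain C57BL/6J. The cells had 100 ng/ml Lipid A, the TLR4-activating part of lipopolysaccharide, for 12 h, then 12 h of washout, then the same dose for 10 min. Ribosomal RNA was depleted from the nuclear (nucleoplasmic) RNA before sequencing. The 2 libraries are replicates of this 1 condition. Replicate 2 was made from 500 ng and replicate 1 from 1 µg of RNA, so that input and replicate cannot be told apart. Sex and age were not collected, both replicates share a donor identifier, and no label states separate cultures or animals, so the spread between them may be technical. No untreated, cytoplasmic or later samples were analysed here, and no value below is an effect of Lipid A.

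RNA polymerase II stops shortly after starting transcription, held by NELF and DSIF, and resumes when P-TEFb phosphorylates both factors and the polymerase. P-TEFb is CDK9 with cyclin T1 or T2. 7SK RNA folds into a scaffold on which a HEXIM dimer binds P-TEFb and blocks its kinase, and signals that call for rapid gene induction release P-TEFb from it. In macrophages many inflammatory genes are controlled at this step.

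Rn7sk is 1 exon of 331 bases on the minus strand of chromosome 9 (mm10, chr9:78175303-78175633), annotated in GENCODE M21 as a miscellaneous RNA, and RNA polymerase III transcribes it. The bases by which its partners know it are shown first. In the first 100 bases, 5′ to 3′ in DNA letters of the GENCODE M21 transcript, capitals mark every copy of the GATC motif. As GAUC in the 5′ hairpin the motif is the known contact of HEXIM. Which of the marked copies HEXIM contacts cannot be read from these data.
Rn7sk bases 1 to 100: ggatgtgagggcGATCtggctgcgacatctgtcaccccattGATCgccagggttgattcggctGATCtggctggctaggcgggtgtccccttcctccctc
The motif began at bases 13, 42 and 64, counted from 1 at the 5′ end, and nowhere later in the RNA. GATC reads the same on both strands. At least 1 copy stood in 66.4% of the 4689 annotated transcripts of 300 to 360 bases, and at least 3 in 9.15% of them, so the motif count alone does not single out this RNA. In the last 40 bases, capitals mark the final run of T, which as a U-rich 3′ end is bound by LARP7.
Rn7sk bases 292 to 331: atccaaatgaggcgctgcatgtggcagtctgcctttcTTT
MEPCE places the methyl cap on the other end, at the first G.

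Rn7sk was by far the most abundant of the 9 RNAs. Its expected count was 1038848 reads in replicate 2 and 1575311 in replicate 1. That was 5.76% of the counts on genes in replicate 2 (exact 95% binomial interval 5.74% to 5.77%) and 6.45% in replicate 1 (6.43% to 6.45%), intervals that cover counting error only. The mean share was 6.10% ± 0.488 (SD, n = 2). Only Malat1, a nuclear long noncoding RNA, had more counts in either library. In TPM, a scale that takes out the length open to fragments, Rn7sk stood first among all genes, with 329709 TPM in replicate 2 and 330338 TPM in replicate 1. The 2 values nearly coincide although the count share was lower in replicate 2.

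The TPM of so short an RNA depends on the length it is divided by. The effective length that the authors' table gives Rn7sk was 114 bases in replicate 2 and 120 in replicate 1, out of 331. Divided by annotated length instead, Rn7sk had 173868 CPM per 1000 bases in replicate 2 and 194698 in replicate 1. CPM are counts scaled to a library of 1000000. For a gene with several transcripts, the length was the mean of their annotated lengths weighted by their counts in that library. Against Cdk9, the next of the 9, it stood 2661 times higher in replicate 2 and 3316 times in replicate 1 on that scale, and 5549 and 6660 times higher in TPM. The interval deposited with the TPM ran from 316009 to 317725 in replicate 2 and from 319216 to 320833 in replicate 1, in both cases below the TPM value itself. In the second quantification, made directly from reads, Rn7sk had 113546 TPM in replicate 2 and 106745 in replicate 1. Its rank by TPM was then 3 in replicate 2 and 4 in replicate 1, and its rank by count was 2 in each, where it took 4.40% in replicate 2 and 5.21% in replicate 1.

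**Figure D1:**
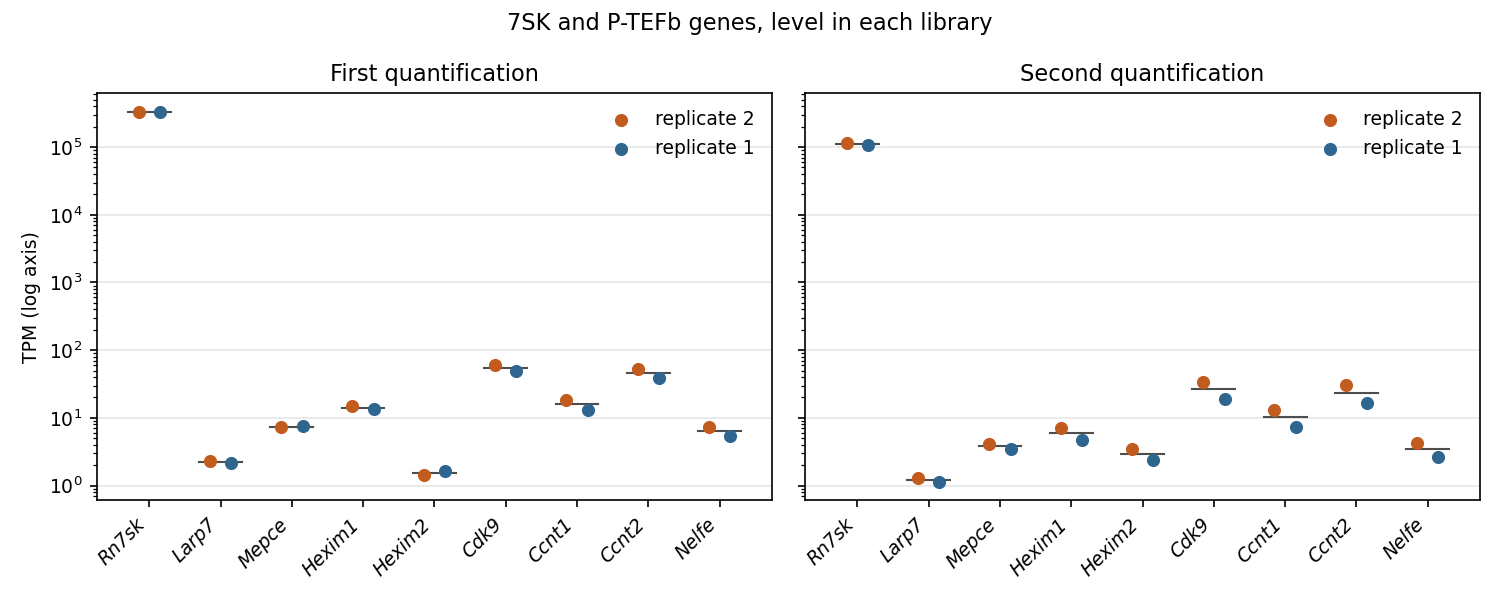
Level of the 9 genes in TPM on a log axis, with replicate 2 left of replicate 1 and a bar at their mean; the first quantification is the left panel and the second the right. Rn7sk lies at or above 106745 TPM in both panels, and the 8 protein-coding genes lie between 1.13 and 59.4 TPM.

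The mouse genome carries many copies of 7SK, and reads from Rn7sk could be assigned to them. A search of GENCODE M21 transcripts, added after the data were seen, found 179 further miscellaneous RNAs resembling Rn7sk. Of these, 15 were at least 90% identical over the aligned stretch, and 11 of the 15 over at least 200 bases. All 179 are called copies here, although some align over short stretches, 40 bases for Gm24734, and they include the separately named gene Mirt2. By the first quantification the copies together held 187 counts in replicate 2 and 319 in replicate 1. That is 0.0180% of the family's counts in replicate 2 and 0.0202% in replicate 1. The deposited SD of the Rn7sk count from assigning reads was 4.68 reads in replicate 2 and 3.60 in replicate 1. The second quantification put 4302 counts on the copies in replicate 2 and 4070 in replicate 1, or 0.320% and 0.238% of the family. By both assignments nearly all 7SK reads were placed on the chromosome 9 locus.

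Where Rn7sk and its closest copies part is visible in their letters. Gm24447 (chr15:93234363-93234700, plus strand) matches Rn7sk without a difference over bases 1 to 241, and so holds the same GATC motifs, and Gm26315 (chr2:7076094-7076414, minus strand) matches bases 5 to 239. In bases 222 to 271 of the 3 transcripts, capitals mark each letter from the first difference on, or, in Rn7sk, from its first difference with Gm24447 on.
Rn7sk: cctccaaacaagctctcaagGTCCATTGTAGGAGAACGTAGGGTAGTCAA
Gm24447: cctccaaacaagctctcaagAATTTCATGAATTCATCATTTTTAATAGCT
Gm26315: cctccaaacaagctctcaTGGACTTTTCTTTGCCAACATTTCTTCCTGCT
The first differences are G242A in Gm24447 and A240T in Gm26315, with the base of Rn7sk first and positions counted from its 5′ end. A read that lies before them matches Rn7sk and Gm24447 equally well. Gm24447 had 4.19 counts in replicate 2 and 9.19 in replicate 1 by the first quantification, and 209 and 1061 by the second. Gm26315 had 42.9 in replicate 2 and 8.96 in replicate 1 by the first, and 346 and 75.8 by the second. Gm26035 on chromosome X, 95.7% identical over 233 bases, had 7.01 in replicate 2 and 142 in replicate 1 by the first, and 1100 and 1855 by the second. Levels of single copies are therefore uncertain.

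**Figure D2:**
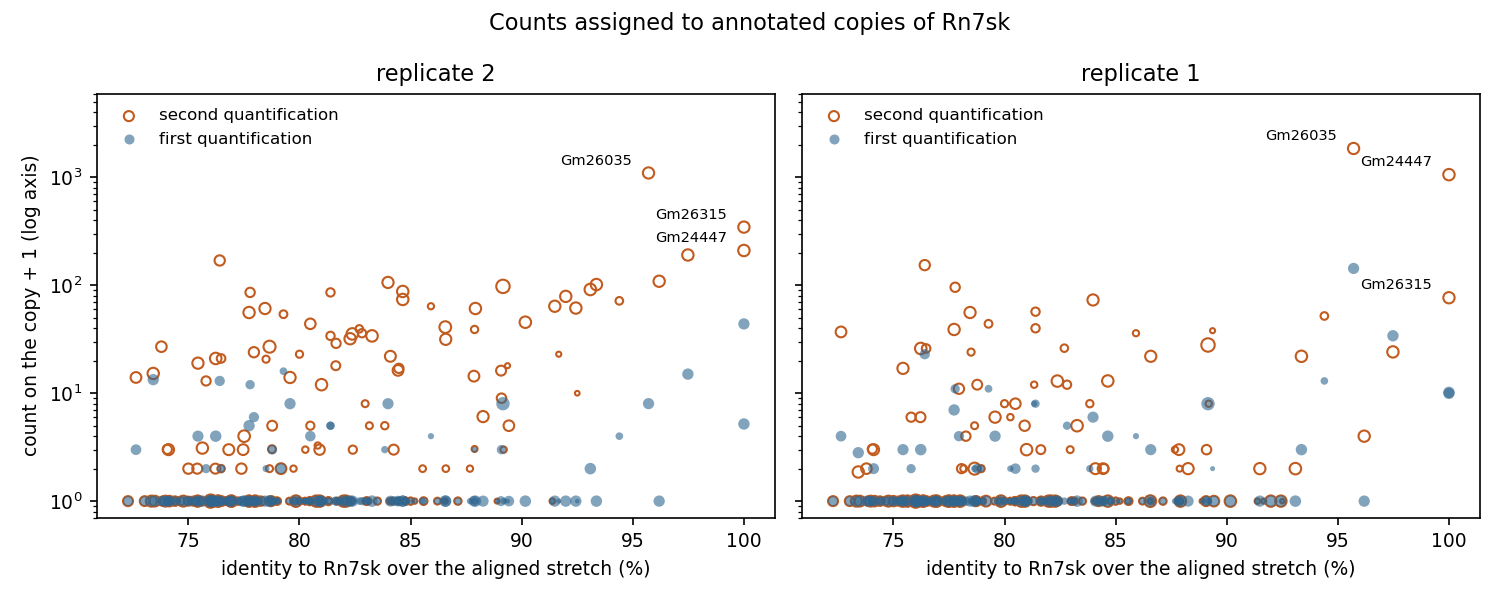
Counts on the 179 annotated RNAs that resemble Rn7sk, here called copies, plus 1 on a log axis, against identity to Rn7sk in percent. Replicate 2 is left and replicate 1 right. Open circles are the second and filled circles the first quantification, and larger circles mark longer alignments. The second quantification places more reads on the copies, up to 1855 on Gm26035 in replicate 1, against 1707290 on Rn7sk there.

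All 8 protein-coding genes were detected in both libraries, where detection asked for 1 TPM or more and 10 counts or more in each library. Of all 22028 protein-coding genes 42.9% met this, and of all 55536 genes 20.4%. By mean TPM the order was Cdk9, Ccnt2, Ccnt1, Hexim1, Mepce, Nelfe, Larp7 and Hexim2. The replicate ranges of the neighbours Cdk9 and Ccnt2 overlapped, as did those of Ccnt1 and Hexim1 and those of Mepce and Nelfe, so these pairs are not ordered across libraries, although Cdk9 was above Ccnt2 within each. The other neighbouring pairs had ranges that did not overlap. In the second quantification Hexim2 stood above Larp7 in both libraries. The median of the 8 in the first quantification was 10.8 TPM, against 7.99 TPM over the 9443 detected protein-coding genes. Bulk nuclear RNA cannot tell fewer expressing cells from less RNA per cell.

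Of the 2 core proteins of the 7SK particle, Larp7 had a low nuclear RNA level and Mepce a middling one. Larp7 (chr3:127536714-127553349, minus strand), which binds and stabilises the 3′ end of 7SK, had 2.29 TPM from 110 counts in replicate 2 and 2.13 TPM from 145 counts in replicate 1. Only 11.0% of detected protein-coding genes had a lower mean TPM. Mepce (chr5:137781906-137787655, minus strand), the methyltransferase that caps 7SK and stays on it, had 7.29 TPM from 468 counts in replicate 2 and 7.46 TPM from 690 in replicate 1. It lay above 47.2% of detected protein-coding genes, near their middle. Mepce exceeded Larp7 by 3.18 times in replicate 2 and 3.50 times in replicate 1, and by 3.19 and 3.01 times in the second quantification. Rn7sk exceeded Larp7 in TPM by 143978 times in replicate 2 and 155089 times in replicate 1, a ratio of RNA levels that says nothing of the proteins.

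The 2 HEXIM genes lie side by side and were unequally expressed. Hexim1 (chr11:103116231-103119725, plus strand), an intronless gene whose product with 7SK inhibits P-TEFb, had 14.8 TPM from 1347 counts in replicate 2 and 13.5 TPM from 1762 in replicate 1. Its paralog Hexim2 (chr11:103132429-103139876, plus strand) begins 12703 bases further on and can act in the same way. It was the lowest of the 9 genes, at 1.42 TPM from 22 counts in replicate 2 and 1.65 TPM from 56 counts in replicate 1. Only 3.71% of detected protein-coding genes were lower. Hexim1 exceeded Hexim2 by 10.4 times in replicate 2 and 8.21 times in replicate 1 in TPM.

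The share of counts on Hexim2 depended on the quantification more than that of any other of the genes. The second quantification gave it 156 counts in replicate 2 and 167 in replicate 1, which is 4.21 and 2.23 times its share of counts in the first. For the other 7 protein-coding genes and Rn7sk that quotient lay between 0.764 and 1.07. The added reads were mostly on 1 transcript, Hexim2-205, with 88.4 counts in replicate 2 and 96.5 in replicate 1, against 1.31 and 1.22 in the first quantification. With these, Hexim2 had 3.46 TPM in replicate 2 and 2.38 in replicate 1, and Hexim1 exceeded it by 2.07 and 1.97 times. Hexim1 was higher in every library and table, but by how much is not settled by these files. In CPM per 1000 bases of the first quantification the ratio was 27.3 in replicate 2 and 15.3 in replicate 1.

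By gene TPM, which sums coding and noncoding transcripts, Cdk9 and Ccnt2 were the highest protein-coding genes of the set. Coding transcripts held 71.0% of the Cdk9 TPM in replicate 2 and 71.8% in replicate 1. For Ccnt2 they held only 30.6% and 26.2%, so its place is not one of coding mRNA. Cdk9 (chr2:32705784-32713076, minus strand), the catalytic subunit, had 59.4 TPM from 2133 counts in replicate 2 and 49.6 TPM from 2532 in replicate 1. It exceeded 94.2% of detected protein-coding genes. Ccnt2 (chr1:127774164-127808061, plus strand), cyclin T2, had 52.1 TPM from 5852 counts in replicate 2 and 38.6 TPM from 6037 in replicate 1. Ccnt1 (chr15:98538689-98570923, minus strand), cyclin T1, had 18.3 TPM from 2015 counts in replicate 2 and 13.3 TPM from 2043 in replicate 1. In each library both cyclins stood below Cdk9.

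Ccnt2 exceeded Ccnt1 by 2.84 times in replicate 2 and 2.91 times in replicate 1, a ratio that moved little between libraries (2.88 ± 0.0457, SD, n = 2). In the second quantification it was 2.27 in replicate 2 and 2.30 in replicate 1. These ratios count every annotated transcript of the genes, coding or not, and for both cyclins most of the TPM was not on coding transcripts, as given further on. Against the 2 cyclins summed, Cdk9 stood at 0.843 in replicate 2 and 0.956 in replicate 1. On coding transcripts alone the direction turned, with Cdk9 above the summed cyclins in both libraries. In replicate 2 Cdk9-201 and Cdk9-202 had 21.1 and 19.8 TPM, against 12.8 for Ccnt2-202, 8.98 for Ccnt1-208 and 3.12 for Ccnt2-201. In replicate 1 Cdk9-201 and Cdk9-202 had 22.3 and 11.1 TPM, against 10.1, 6.30 and 0.02 for the cyclin transcripts in that order. The antisense gene 9330020H09Rik overlaps Ccnt1 and had 44.4 counts in replicate 2 and 82.5 in replicate 1. Strandedness is not given in the sources used here, so reads of the overlap cannot be assigned to a strand, and the SD of the Ccnt1 count from assigning reads was 1.15 and 1.54 reads.

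Nelfe (chr17:34850391-34856372, plus strand), the RNA-binding subunit of NELF, had 7.35 TPM from 176 counts in replicate 2 and 5.38 TPM from 222 in replicate 1. It lay above 41.6% of detected protein-coding genes. The second quantification gave it 4.22 TPM in replicate 2 and 2.67 in replicate 1. Its share of counts was alike in both tables, 0.991 times as large in the second as in the first for replicate 2 and 1.07 times for replicate 1.

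Between the replicates the 9 genes differed little. Ratios are log2 values of replicate 2 over replicate 1, taken on TMM-scaled counts with 0.5 added, and the interval beside each is the exact 95% binomial one for counting error. Of the 8 protein-coding genes 3 had a ratio above 0, and their median was −0.087, against 0.006 over the 11751 protein-coding genes that averaged 10 counts or more. Only 1 of the 9 genes passed 2-fold, Hexim2, and among all 15431 genes at that count 8.45% did. Of the 11751 protein-coding genes, 4.08% were lower in replicate 2 by over 2-fold.

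Ccnt1 was 0.25 higher in replicate 2 (0.17 to 0.34) and Ccnt2 0.23 higher (0.18 to 0.28), the only intervals that lay above 0. Rn7sk had a ratio of −0.33 (−0.33 to −0.32), Mepce −0.29 (−0.46 to −0.11) and Hexim1 −0.11 (−0.22 to −0.010), all with intervals below 0. For Cdk9 the ratio was 0.027 (−0.057 to 0.11), for Nelfe −0.060 (−0.35 to 0.23) and for Larp7 −0.12 (−0.50 to 0.24), intervals that held 0. With 1 library on each side these describe the libraries and are no test of replicates. All 8 macrophage markers were also lower in replicate 2, their ratios having a median of −0.58, and their part in these ratios was not tested. An interval off 0 says only that counting error was smaller than the difference.

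Hexim2 had a ratio of −1.06, with an interval from −1.86 to −0.34. It was −0.90 when scaled by library size, −0.22 in TPM and −0.18 in the second quantification. TPM also divides by the gene's effective length, an average over transcripts, which was 560 bases in replicate 2 and 856 in replicate 1. The 2-fold difference therefore rests on 22 and 56 counts of 1 table.

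TPM moved the whole set. Its median log2 ratio over protein-coding genes was 0.24, and over the 8 genes 0.20. Relative to that median, Ccnt1 was at 0.22, Nelfe at 0.21, Ccnt2 at 0.19, Rn7sk at −0.24, Mepce at −0.28 and Hexim2 at −0.46. The signs of Hexim1, Larp7 and Nelfe turned from below 0 under TMM to above 0 in plain TPM and under library size. No direction is drawn for these 3 genes. Ccnt1 and Ccnt2 stayed above 0, and Rn7sk, Mepce and Hexim2 below 0, under each of the 4 scalings plotted. Cdk9 was at −0.002 in the second quantification and above 0 under the other 3.

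**Figure D3:**
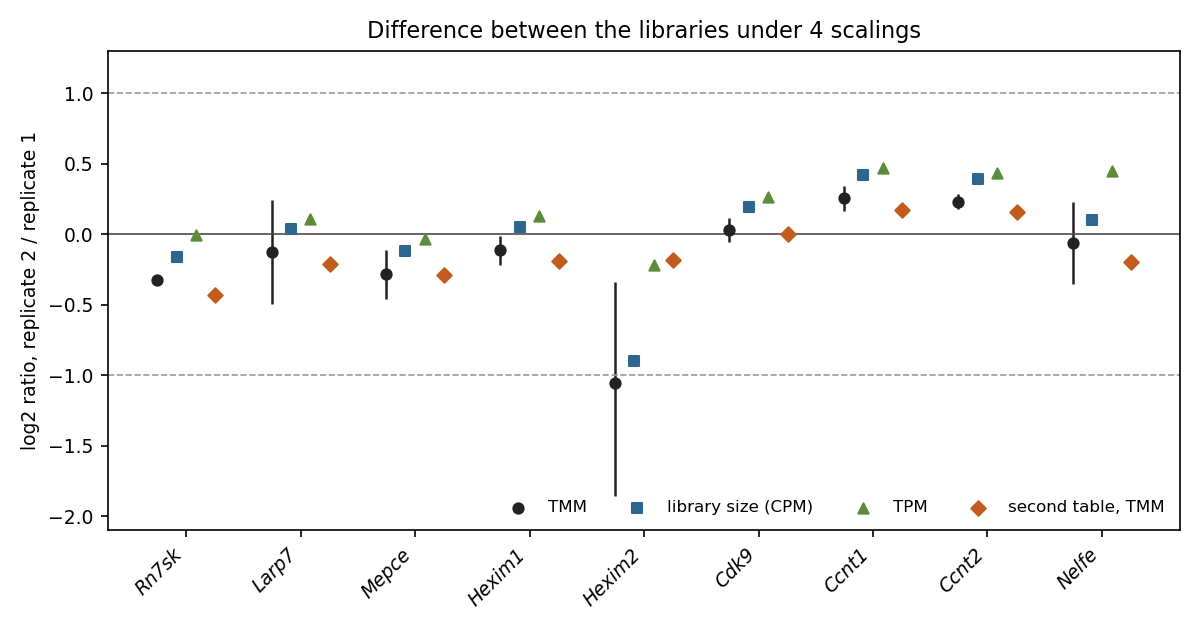
Log2 ratio of replicate 2 over replicate 1 for each gene under 4 scalings, with the exact 95% counting interval as a line through the TMM value and dashed lines at 2-fold. Of the plotted values, the TMM value of Hexim2 at −1.06 is the 1 that passes 2-fold.

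The genes differ in how their reads fall on annotated transcripts. GENCODE M21 gives Rn7sk and Hexim1 a single transcript each, Hexim2 5 coding ones, and the other genes 4 to 9 transcripts of mixed class. A retained-intron transcript keeps an intron of the mature form, a nonsense-mediated decay transcript has an early stop codon, and a processed transcript has no open reading frame. Values are percent of the gene's TPM unless counts are named. Whether reads on retained-intron transcripts of this nuclear RNA came from RNA not yet spliced was not tested. Their shares are therefore not shown to be finished transcripts.

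Ccnt2 was spread most widely. Its coding transcripts held 30.6% in replicate 2 and 26.2% in replicate 1, and retained-intron transcripts held 46.7% and 47.6%. The coding Ccnt2-202 had 24.6% in replicate 2 and 26.2% in replicate 1. The processed transcript Ccnt2-207 had 22.6% and 26.2%, and by count it led the gene with 2429 reads in replicate 2 and 2976 in replicate 1. Among retained introns, Ccnt2-206 had 21.2% in replicate 2 and 25.8% in replicate 1, and Ccnt2-204 15.5% and 13.8%. The longer coding form Ccnt2-201 had 565 counts in replicate 2 and 4.41 in replicate 1, with assignment SDs of 96.3 and 56.9 reads, and none in the second quantification. Retained-intron transcripts took 22.7% of the Ccnt2 counts in replicate 2 and 22.1% in replicate 1, against medians of 15.5% and 15.1% over 5972 detected coding genes with both classes. Of those genes 61.2% had a lower share in replicate 2 and 61.5% in replicate 1.

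Ccnt1 looked different in TPM and in counts. The coding Ccnt1-208, 7397 bases long, had 49.0% of TPM in replicate 2 and 47.5% in replicate 1, but 88.8% and 87.9% of counts lay on coding transcripts. Ccnt1-203, a processed transcript of 683 bases, had 35.3% of TPM in replicate 2 and 34.1% in replicate 1 from only 82.8 and 83.7 counts. The retained-intron Ccnt1-202 had 15.4% in replicate 2 and 17.0% in replicate 1. In the second quantification Ccnt1-203 fell to 8.92% and 6.70%, and retained-intron forms held 54.4% and 61.9%. Coding transcripts still had most Ccnt1 counts there, 79.7% in replicate 2 and 76.8% in replicate 1.

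Cdk9 was divided mainly between 2 coding forms, in proportions that differed between libraries and tables. Cdk9-201 had 35.4% in replicate 2 and 45.03% in replicate 1, and Cdk9-202 33.3% and 22.4%. Cdk9-201 had 883 counts in replicate 2 and 1344 in replicate 1, with assignment SDs of 68.1 and 84.1 reads, and Cdk9-202 had 738 and 593, with SDs of 70.6 and 82.8. The second quantification gave Cdk9-202 13.4% in replicate 2 and 5.47% in replicate 1. The forms together, with Cdk9-209, held 71.0% in replicate 2 and 71.8% in replicate 1, so the coding share moved little while its division did. The nonsense-mediated decay transcript Cdk9-208 had 19.1% in replicate 2 and 20.1% in replicate 1, and 21.03% and 23.9% in the second quantification.

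The remaining genes were mainly coding by count. Larp7-201 held 82.6% in replicate 2 and 79.2% in replicate 1, and the retained-intron Larp7-202 10.7% and 15.6%. The 5 microRNA genes of the Mir302 and Mir367 cluster, which lie inside Larp7 on the other strand, are listed at 0 with an effective length of 0, which does not show absence. Mepce-201 held 77.2% in replicate 2 and 78.0% in replicate 1. Mepce-202 had 22.8% and 7.86% from 14.0 and 7.17 counts, and the retained-intron Mepce-203 0% in replicate 2 and 11.1% in replicate 1 from 0 and 8.03 counts.

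Nelfe-202 led its gene with 60.4% in replicate 2 and 53.9% in replicate 1. The other 3 entries past 10% were so in 1 library each. Nelfe-204 had 0% in replicate 2 and 17.1% in replicate 1, Nelfe-201 3.15% and 12.1%, and the short retained-intron Nelfe-206 20.3% and 6.15%, the last from 8.27 and 2.69 counts. For Hexim2, Hexim2-204 had 67.6% in replicate 2 and 48.8% in replicate 1 from 4 and 5 counts, while Hexim2-201, at 25.1% and 41.7%, had 16.7 and 46.2 counts. Shares of such short forms are set by a handful of reads.

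**Figure D4:**
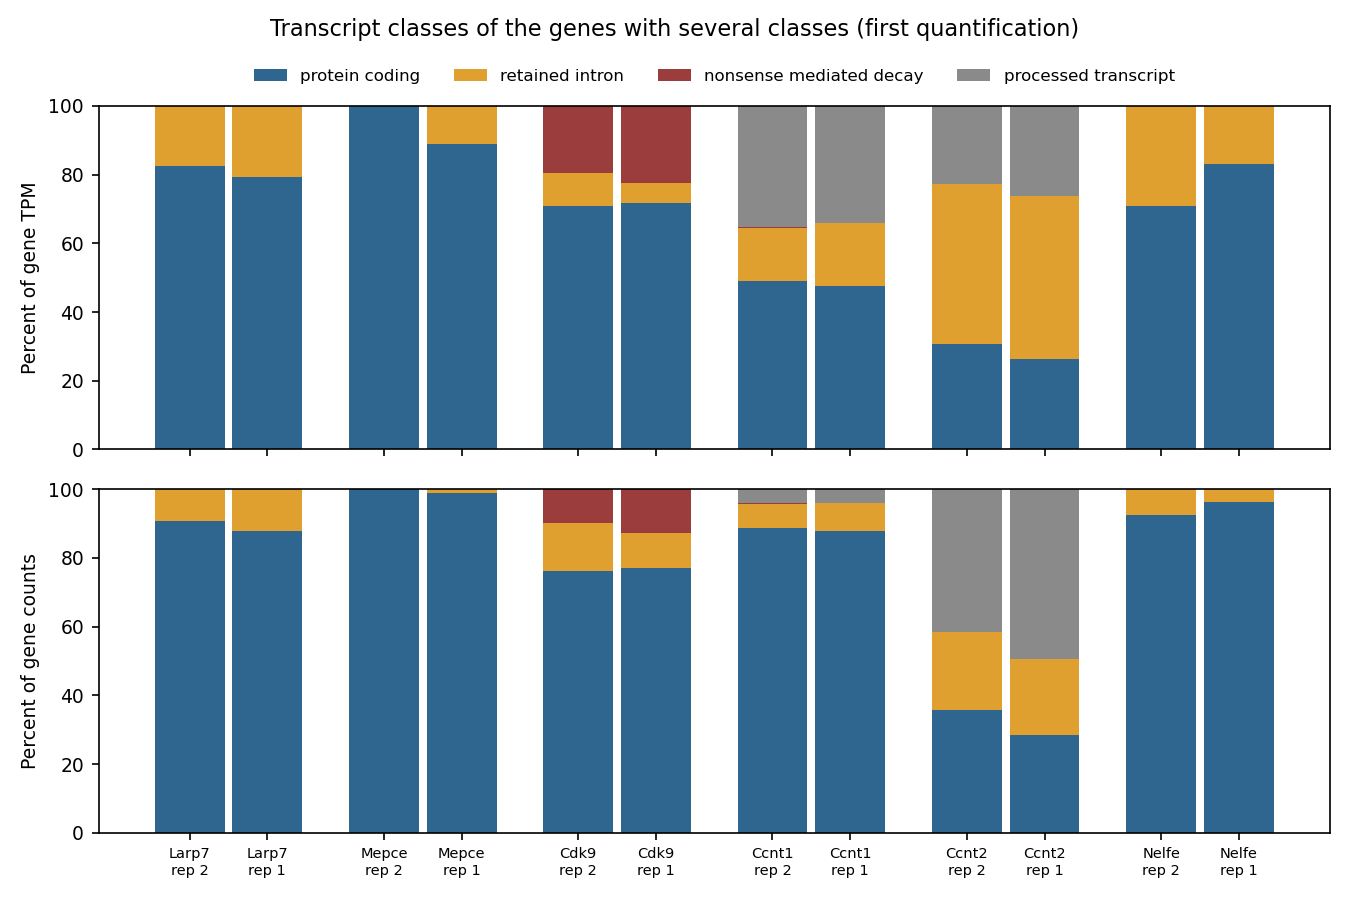
Transcript classes of the 6 genes that have several, as percent of gene TPM (top) and of gene counts (bottom), first quantification, replicate 2 left of replicate 1 for each gene. Coding transcripts take most counts of every gene but Ccnt2, whose coding share is 35.8% in replicate 2 and 28.6% in replicate 1.

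The partners of these genes were mostly present too, given here as means of the 2 libraries unless a replicate is named. Over 10 lists of related protein-coding genes, with Nelfe counted in its complex, 69 of 73 were detected, against 42.9% of all protein-coding genes. Among the 70 that averaged 10 counts or more, 1 was past 2-fold, against 6.23% of all such protein-coding genes. All 4 NELF genes were detected, and their median was 6.24 TPM. By mean the highest were Nelfb at 8.81 ± 1.70, Nelfe at 6.37 ± 1.39 and Nelfa at 6.12 ± 0.841 (SD, n = 2 each), but in replicate 1 Nelfe was the lowest of the 4, so no rank is drawn for it. Supt5 and Supt4a, the subunits of DSIF, had 16.2 ± 2.63 and 6.45 ± 0.643 TPM, and Supt6, a histone chaperone of elongating polymerase, 13.9 ± 0.820. The 6 PAF1 complex genes were all detected, led by Paf1 (16.7), Cdc73 (13.9) and Rtf1 (5.40 TPM).

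Factors that draw P-TEFb to genes varied widely. In the super elongation complex list 7 of 9 were detected, led by Aff1 at 35.1 TPM, Ell2 at 25.7 and Aff4 at 17.3. Ell3 had 0.15 TPM in replicate 2 and 0.19 in replicate 1, and Eaf2 0.11 and 0.10. The level of Eaf2 depended on the quantification. It had 3 counts in each library by the first, and 143.5 in replicate 2 and 141.5 in replicate 1 by the second. Its TPM by the second was 0.945 and 0.569, still below the limit for detection. Brd2 and Brd3, BET proteins that bind acetylated histones, had 85.6 and 4.46 TPM. All 12 factors that release P-TEFb from 7SK or bind the freed 7SK were detected, at a median of 22.8 TPM. Highest were Hnrnpa2b1 (283), Srsf2 (128) and Hnrnpa1 (36.3 TPM). Of the other transcriptional kinases and cyclins all 9 were detected, Cdk12 (28.8), Cdk13 (20.4) and Cdk8 (17.5 TPM) highest, all of them below the Cdk9 mean of 54.5 ± 6.94. The largest of these in any library, Cdk12 at 33.6 TPM in replicate 2, was below the lower Cdk9 value of 49.6.

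Larp7, at 2.21 ± 0.113 TPM, was far below the highest genes of its family, Larp1 (29.9 TPM), Ssb, which encodes the La protein (22.9), and Larp4b (22.5). It was above Larp1b, at 1.89 TPM in replicate 2 against 2.29 for Larp7, and at 1.32 in replicate 1 against 2.13. In the second quantification that direction turned in replicate 2, with 1.63 TPM for Larp1b and 1.31 for Larp7, and not in replicate 1, with 0.886 and 1.13. Of its 6 relatives 5 were detected, with Larp6 listed at 0 in both libraries. Of the factors for the type of promoter that drives Rn7sk all 10 were detected, with Snapc3 (24.1), Bdp1 (12.5) and Snapc4 (10.5 TPM) highest. By the second quantification, 4 of the Larp7 relatives and 9 of these promoter factors were detected. Of 11 RNA polymerase III subunits 10 were detected, led by Polr3c (12.3), Polr3gl (11.4) and Polr3a (9.15 TPM). Polr3g had 1.58 TPM in replicate 2 but 0.60 TPM in replicate 1, and with a log2 ratio of 1.04 was the related coding gene past 2-fold.

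Among the listed short RNAs made by RNA polymerase III, Rn7sk was the highest in TPM. Both libraries are labelled with a size range of 250 to 400, and Rn7sk is 331 bases long. How far that range sets the levels of these short RNAs was not tested, so their order in TPM is not shown to be one of abundance. Rpph1, the RNA of ribonuclease P, had 113735 TPM in replicate 2 and 70261 in replicate 1, and the larger of the entries of Rmrp, the RNA of ribonuclease MRP, 73978 and 69790. The smaller Rmrp entry, at the same locus, had a log2 ratio of −1.82, and Rn7s2, a copy of the signal recognition particle RNA nearly identical to Rn7s1, −1.10. Their division among entries is uncertain. The short Rny1 and Rny3 are listed at 0 with no effective length, which does not show absence.

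**Figure D5:**
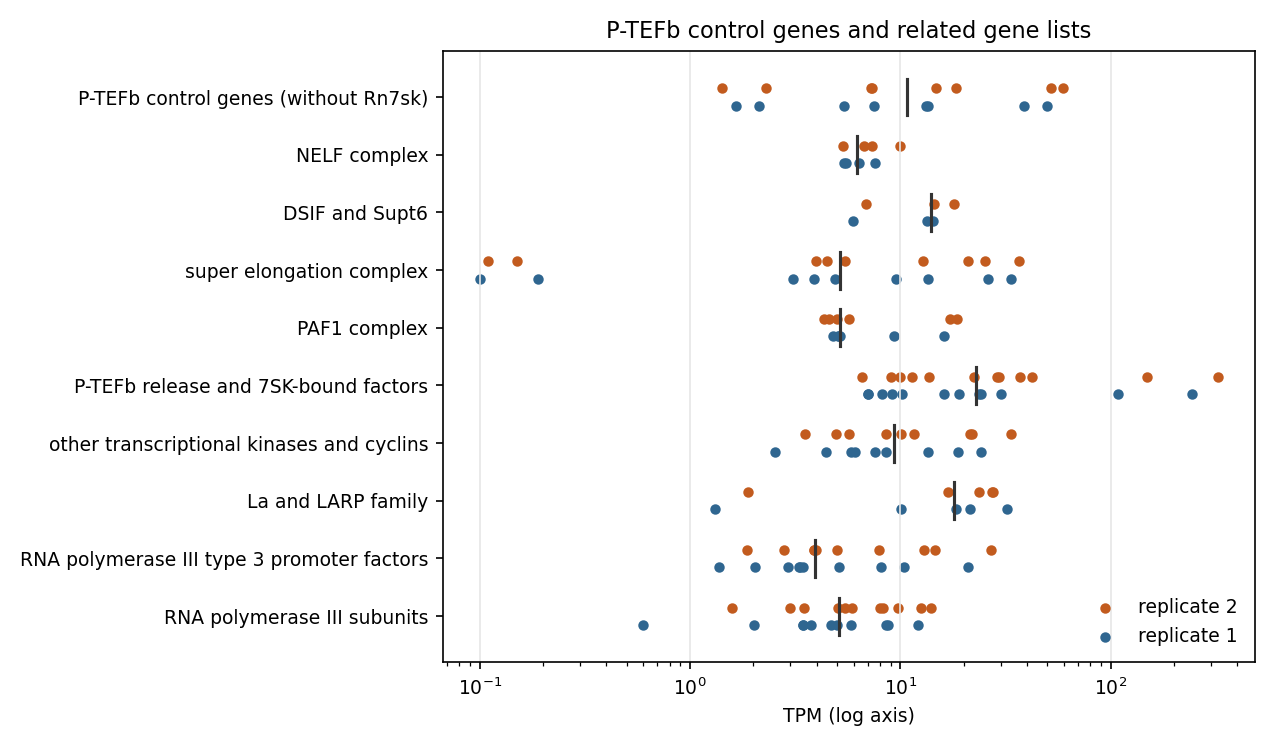
TPM of the 8 protein-coding P-TEFb control genes (top row) and of 9 related lists on a log axis, replicate 2 above replicate 1 in each row, with a bar at the median of the gene means; Larp6, listed at 0, enters the median and is not drawn. The 8 genes span 1.42 to 59.4 TPM, and the list of release and 7SK-bound factors reaches 324 TPM.

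Cell markers followed the label. The gene counts of replicate 2 totalled 18051097 and those of replicate 1 24444219. All 8 macrophage markers were detected, with a median of 259 TPM and Lyz2 the highest. None of the 4 markers in each of the B cell, T and NK cell, neutrophil and fibroblast lists was detected, their summed TPM per list and library was between 0.02 and 0.89, and Cd79a, Cd3g and Ly6g had no counts, all by the first quantification. The second gave Cd3g 74.2 counts in replicate 2 and 34.4 in replicate 1 and Cd79a 11.1 and 9.82, and its highest marker of these lists was Cd8a, with 0.487 TPM in replicate 2 and 0.242 in replicate 1. The nuclear RNAs Malat1 and Neat1 were high, at 19978 and 951 TPM in replicate 2 and 12920 and 756 in replicate 1.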

How the data were processed

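The authors deposited 3 quantification tables per library, for 2 libraries of nuclear RNA. Per the deposited file descriptions, the gene table and the first transcript table came from an alignment to the transcriptome (mm10, GENCODE M21) and the second transcript table directly from reads and an index. Per the file headers, they give an expected or estimated count and a TPM, the percent of gene TPM per transcript, an effective length, and 2 further values treated here as scores, the SD of a count from assigning reads and the bounds of TPM. Which quantifiers, aligner and strand setting were used is not given in the sources at hand. The authors scaled TPM over all entries, so Rn7sk, with 33.0% of gene TPM in replicate 2 and 33.1% in replicate 1 of the first table, lowers that of all other genes.

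Entries that name no gene held 0.245% of counts in replicate 2 and 1.06% in replicate 1 and were left out. Second-table counts and TPM were summed per gene over 55450 genes. Expected counts were rounded for the TMM factors (edgeR 4.0.16 in R 4.3.3, genes averaging 10 counts or more), and ratios had 0.5 added. The ratio was tested on simulated data for genes averaging 50 counts or more, which leaves out Hexim2 with its mean of 39 counts. Intervals used scipy 1.17.1. Copies of Rn7sk were found with blastn 2.17.0 (word size 11, e-value 1e-05, misc_RNA entries). Sequences are GENCODE M21 transcripts.

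With 1 condition no contrast was tested: the smallest two-sided exact p that 2 libraries allow is 0.5. Alternatives were DESeq2 1.42.0 size factors, library size, TPM, the second table, other minimums and 1 library alone. All 9 genes are named. From each related list the 3 highest, up to 3 undetected and up to 2 past 2-fold are named, as are transcripts with at least 10% of gene TPM in a library. 1 undetected vault RNA and some of the entries past 2-fold among short RNAs are left unnamed, and some listed genes are not reported here. The members and lists were chosen with earlier results of these data known.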

Additional observations from a re-analysis of the deposited data

How the results depend on the processing

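No paired analysis was possible because both libraries belong to 1 group. The Rn7sk share of gene counts, 6.10%, was 4.80% in the second table, and lay between 5.76% and 6.45% with 1 library alone. It moved by less than the replicate SD over all entries (6.06%), without mitochondrially encoded genes (6.29%) and with its copies summed (6.10%, chosen after seeing the data). All 9 genes stayed detected in the second table, at a TPM of at least 0.5, without a minimum count and in each library alone, and 7 at a TPM of at least 5. The number past 2-fold was 1, and 0 by library size, TPM, TPM relative to the protein-coding median, the second table under TMM or (chosen after seeing the data) relative TPM, and at a mean count of at least 50, where Hexim2 no longer enters. The median log2 ratio of −0.087 was 0.076 by library size and 0.20 in TPM, and between −0.18 and −0.046 under DESeq2 size factors, relative TPM, the second table, 1 added, no minimum count and a mean count of at least 50. Leaving out 1 library gives no ratio between replicates. No result past 2-fold changed sign. Depth limits Hexim2, Larp7 and Nelfe, and transcript shares resting on a few reads.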
